A study of Mus musculus with 19 samples.

Results

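The genes described here are 40 interferon-stimulated genes of the mouse, taken from a fixed list of symbols, and all 40 were rows among the 18607 genes of the table. The list names genes known to be induced by interferon. Expression was measured by RNA sequencing in 19 libraries of 3 sorted progenitor populations from C57BL/6 mice, with bone marrow given as the tissue of every library, although the growth protocol also names thymus. ALP, the common lymphoid progenitors of the design text, had 7 libraries and were lin-low, Ly-6D-low, Kit+, IL-7Rα+ and Flt3-high. EILP, an early progenitor of innate lymphoid cells (ILC), had 7 libraries and were lin-low, Ly-6D-low, CD122-low, Kit+, GFP-high, Thy-1.2-low and intermediate to low for IL-7Rα. ILCp, a later ILC progenitor, had 5 libraries and were lin-low, Ly-6D-low, CD122-low, Kit+, GFP-high, Thy-1.2+, IL-7Rα-high and α4β7+. All ALP and EILP libraries and ILCp libraries 1 to 3 came from Tcf7EGFP/+ mice, which carry a GFP reporter at Tcf7, the gene of the transcription factor TCF-1. ILCp libraries 4 and 5 came from Plzf-cre-GFP/+ mice, in which GFP reports Plzf. The GFP gate thus read a different gene in those 2 libraries, and no library of mice without a reporter was analysed here.

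Type I interferons bind the receptor chains Ifnar1 and Ifnar2, whose kinases Jak1 and Tyk2 pass the signal on to the nucleus. There a complex that contains Irf9 binds the interferon-stimulated response element (ISRE) in the promoters of interferon-stimulated genes. Their products sense foreign nucleic acid, block viral entry, translation or budding, or feed back on the pathway, and stem and progenitor cells are known to hold some of them at a basal level without infection.

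A match to that element was found in part of the genes' promoters. RefSeq promoter windows (GRCm38.p6, 300 bases each) were available for 29 of the 40 genes, and the ISRE core, taken as GAAA, any 2 bases and GAAA again and searched on both strands, was in the window of 12 of the 29 (41.4%). Of all 27025 genes with a window, 1079 (3.99%) held it. The longer form, with CT directly after the core, was in 7 of the 29 (24.1%) and in 0.303% of all genes. The 12 genes with the core were Bst2, Ddx58, Eif2ak2, Ifih1, Ifit1, Ifit3, Ifitm3, Isg15, Oas1a, Oas3, Rsad2 and Trim30a. The following stretches, from position −150 to 50 around the transcription start, are the 5 members with the core that had the smallest p in any comparison below, and Ifi44, which also differed between populations and has no match to the core in its window. Capitals mark the core or its reverse complement.
Ifitm3 promoter, chr7:141010695-141010894, minus strand: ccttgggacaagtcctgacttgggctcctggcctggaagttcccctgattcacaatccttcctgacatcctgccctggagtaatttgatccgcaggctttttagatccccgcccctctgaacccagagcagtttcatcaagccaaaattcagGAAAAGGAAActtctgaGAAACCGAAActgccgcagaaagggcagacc
Bst2 promoter, chr8:71537423-71537622, minus strand: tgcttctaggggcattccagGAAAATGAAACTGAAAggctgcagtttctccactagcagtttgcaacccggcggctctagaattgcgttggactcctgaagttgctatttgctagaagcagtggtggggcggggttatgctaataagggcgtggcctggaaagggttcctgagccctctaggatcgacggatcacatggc
Ifit1 promoter, chr19:34640739-34640938, plus strand: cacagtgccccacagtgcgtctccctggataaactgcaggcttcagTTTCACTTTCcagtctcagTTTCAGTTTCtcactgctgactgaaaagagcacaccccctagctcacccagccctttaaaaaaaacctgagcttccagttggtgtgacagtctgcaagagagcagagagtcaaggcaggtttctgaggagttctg
Trim30a promoter, chr7:104465144-104465343, minus strand: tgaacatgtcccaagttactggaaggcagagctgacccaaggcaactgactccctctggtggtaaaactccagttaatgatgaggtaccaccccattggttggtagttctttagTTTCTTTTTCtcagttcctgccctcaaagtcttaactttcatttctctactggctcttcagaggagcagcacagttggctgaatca
Oas1a promoter, chr5:120907476-120907675, minus strand: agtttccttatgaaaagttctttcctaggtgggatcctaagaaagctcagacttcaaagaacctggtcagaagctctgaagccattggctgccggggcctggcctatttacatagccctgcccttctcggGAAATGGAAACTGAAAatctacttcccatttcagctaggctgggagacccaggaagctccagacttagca
Ifi44 promoter, chr3:151749861-151750060, minus strand: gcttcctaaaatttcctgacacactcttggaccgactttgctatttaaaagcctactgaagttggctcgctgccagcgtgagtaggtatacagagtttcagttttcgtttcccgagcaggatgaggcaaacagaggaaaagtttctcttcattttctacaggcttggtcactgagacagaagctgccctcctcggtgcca
In Bst2 and Oas1a the capitals are a pair of overlapping matches that share GAAA. In Ifit1 both matches lie on the other strand and so read TTTC. Ifitm3 carries its matches after the start, at positions 3 and 20, within the transcribed part.

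**Figure D1:**
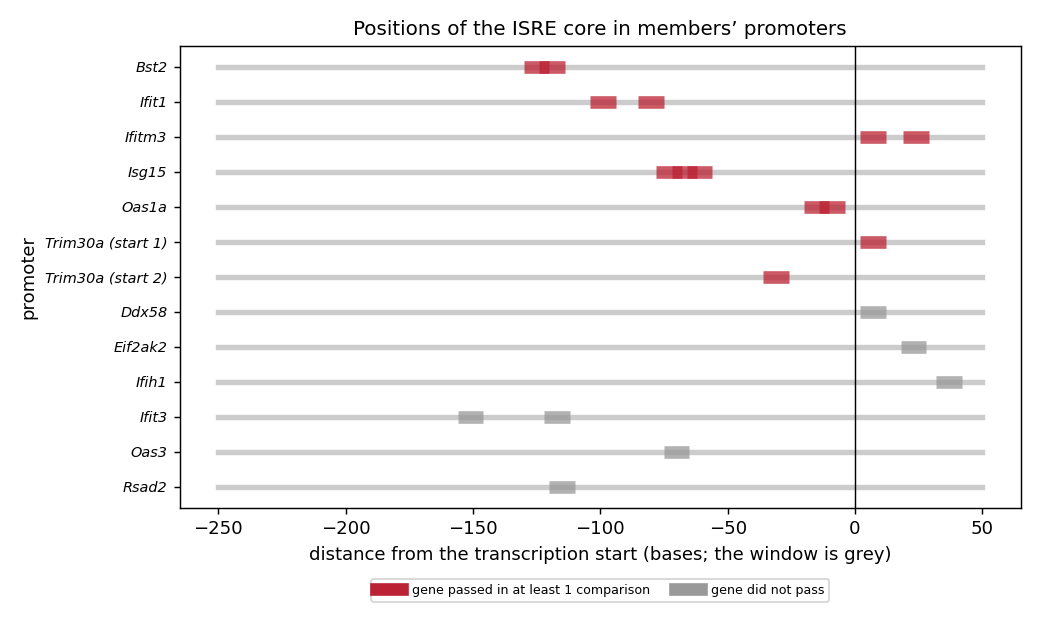
Each row is a promoter window of a gene with the ISRE core, the x axis is the distance in bases from the transcription start, and blocks are matches to the core on either strand. The 20 matches run from position −156 to 33, with 14 before the start; red blocks belong to genes that passed the test in at least 1 comparison.

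Values are given as log2 CPM (counts per 1e6 reads on a log2 scale) as deposited. A gene without reads still has a number there, about −4.96 on average over the batches, which is called the zero level below. The labels place the libraries in 5 batches. Batch 3 held only EILP 3 and EILP 4, and batch 5 held no ILCp. Batch coefficients in the deposited values were 0 (largest 1.84e-08 on the log2 scale), so batch differences had been removed while the populations were kept apart. The zero level of one gene therefore differs between batches. Within a batch, the deviations of its libraries from their population means sum to 0, so that one extreme library shifts the others of its batch the opposite way. EILP 3 and EILP 4, alone in batch 3, therefore lie at equal distances on either side of the EILP mean for every gene. They are not separate observations of the EILP level, although the EILP ranges and SDs below count both. The depth of the libraries is unknown, since the values hold no counts. Among the sorting genes, mean levels of Tcf7 were 1.06 in ALP, 10.51 in EILP and 9.24 in ILCp, those of Flt3 10.21, 7.34 and 3.25, and those of Thy1 −2.84, 0.07 and 5.30, in the order of the gates. Il2rb, the gene of CD122, averaged −1.68 in ALP but 7.14 and 6.61 in the CD122-low EILP and ILCp, and Ly6d averaged 5.67, 1.10 and 1.20, although all 3 populations were Ly-6D-low. Labels do not say whether libraries came from separate mice, and the p-values below rest on the spread among libraries, which may be technical.

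Most of the 40 genes were at their highest in ALP. The median level over the 40 genes, taken in each library, ran from 5.26 to 5.81 log2 CPM in the 7 ALP libraries, from 4.03 to 4.56 in the 7 EILP libraries and from 4.21 to 5.23 in the 5 ILCp libraries. ALP did not overlap with either of the others, while EILP and ILCp did overlap. The gap to ILCp was narrow, from 5.26 in ALP 7 to 5.23 in ILCp 1. The median over all genes also reached higher in ALP, at 2.32 to 3.00, against 2.13 to 2.68 in EILP and 2.25 to 2.64 in ILCp. It was 2.76 in ALP 7 and 2.56 in ILCp 1. Set against each library's own all-gene median, ALP still lay above EILP but overlapped with ILCp. A gene was called where limma, with population and batch in the model, gave a Benjamini-Hochberg adjusted p below 0.05 over all 18607 genes. In all, 12 genes were called in at least 1 of the 3 comparisons, all of them lower in a later population than in ALP. Of these, 5 were lower in EILP than in ALP and called in no other comparison, namely Ifit1, Rtp4, Trim30a, Parp9 and Adar. Another 4, Ifi44, Bst2, Xaf1 and Ifitm3, were lower in both EILP and ILCp than in ALP. Isg15, Ifi35 and Oas1a were called only between ILCp and ALP, and 28 genes were not called. The 3 comparisons share libraries and are not independent of each other, and whether one fold change differs from another was not tested. In these pooled cells, fewer expressing cells and less RNA per cell cannot be told apart.

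**Figure D2:**
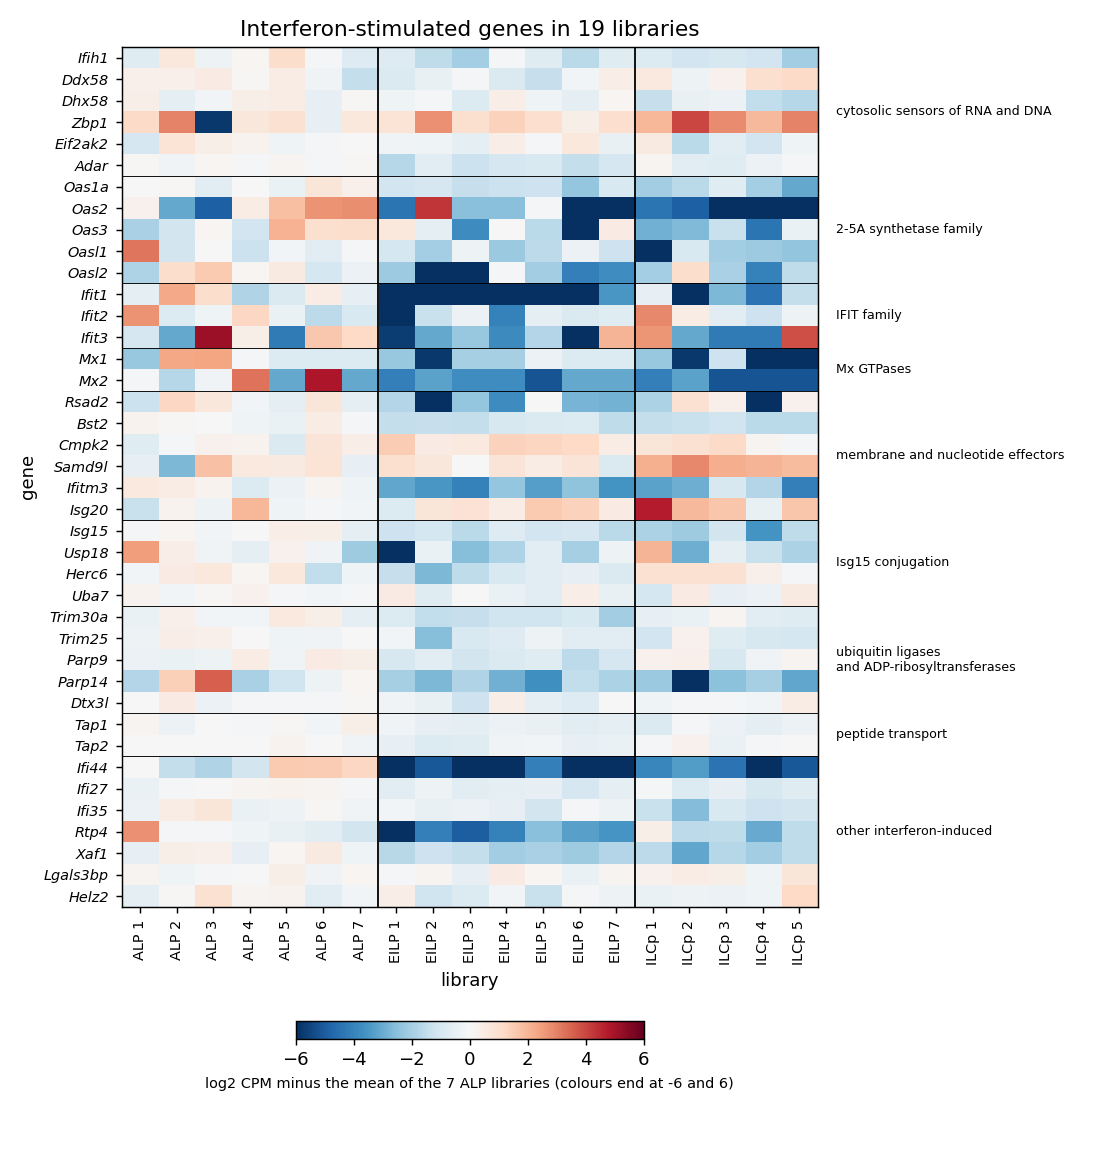
Each row is one of the 40 genes, grouped by role, and each column one of the 19 libraries; colour is log2 CPM minus the mean of the 7 ALP libraries, with colours ending at −6 and 6. Blue is seen across most EILP columns, where 36 of the 40 mean differences lie below 0, while Zbp1, Cmpk2, Samd9l and Isg20 have mean levels above those of ALP.

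Between EILP and ALP, 9 of the 40 genes (22.5%) fell and 0 rose. Over all genes 2.79% were called lower, 2.25% higher and 5.05% in either direction. At an unadjusted p below 0.05, 19 genes were lower and 1, Cmpk2, was higher, against 8.83% and 8.63% of all genes. The 19 included Mx2, which was at the zero level in all 7 EILP libraries. The lowest ALP library was above the highest EILP library for 11 genes, the 9 called ones with Isg15 and Oas1a, and the reverse held for 0 genes. Of all genes, 2.38% were lower and 2.36% higher without overlap. The median log2 fold change was −1.20 over the 40 genes and 0.00 over all genes. For the 9 called genes, a lower level in EILP in each of the 4 batches that hold both populations follows from this lack of overlap. It is not a separate result.

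Among the sensors and editors of nucleic acid, 1 of 6 fell. Adar, the enzyme that edits adenosine in double-stranded RNA and so hides the cell's own RNA from sensors, had levels of 7.10 to 7.49 in ALP (median 7.40) and 5.61 to 6.66 in EILP (median 6.32). The populations did not overlap, and the log2 fold change was −1.15 ± 0.20 (SE, limma adjusted p = 0.00256). In ILCp the levels were 7.49, 6.63, 6.62, 6.96 and 7.24, which spans from the ALP range down to the top of the EILP range. Exons of Adar share 1365 bases (16.8%) with Chrnb2 on the opposite strand, and the library kits do not mark strand, so reads there cannot be assigned. Of the genes described below, Ifi35 shares 16.8% of its exon bases with Gm11626 and Tap2 14.1% with Gm15821, on opposite strands. On the same strand, Rtp4 shares 13.9% with Gm45338 and Herc6 13.7% with Gm45193. Reads in those stretches cannot be assigned either. Ifih1, the sensor MDA5 of long double-stranded RNA, was not called, with mean levels of 4.18 ± 0.68, 3.10 ± 0.66 and 2.95 ± 0.50 (SD over 7, 7 and 5 libraries) in ALP, EILP and ILCp. Ddx58, the sensor RIG-I, and Dhx58, its relative LGP2, had log2 fold changes between EILP and ALP of −0.49 ± 0.41 and −0.22 ± 0.32 (SE) and were not called. Neither were Eif2ak2, the kinase PKR that halts translation, nor Zbp1, a sensor of Z-form nucleic acid, with −0.07 ± 0.40 and 1.18 ± 1.11.

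The IFIT proteins bind viral RNA and block its translation. Ifit1 was called, with levels of 3.75 to 7.80 in ALP (median 5.03) and −4.60 to 2.06 in EILP (median −1.36). Every EILP library was below every ALP library, and EILP 2 was at the zero level. Other EILP libraries may have been there too, since a lone library without reads in its batch can go unmarked. The log2 fold change was −7.27 ± 1.28 (SE, limma adjusted p = 0.00242), and the differences within batches 1, 2, 4 and 5 were −8.76, −8.57, −4.71 and −6.49. In ILCp the levels of Ifit1 were 5.05, −1.36, 2.85, 1.09 and 4.11, the second at the zero level. ILCp 1 and ILCp 5 thus lay within the ALP range, while ILCp 2 and EILP 2 shared the zero level of their batch. The EILP median of Ifit1 is that same value. Ifit2 and Ifit3, its neighbours on chromosome 19, were not called, and Ifit3 was at the zero level in 5 of 19 libraries. EILP 1 had the lowest Ifit2 level at −3.25, and ALP 1 and ILCp 1, the only other libraries of its batch, had 7.02 and 7.23. The batch removal ties these 3 values together, so they are not separate observations.

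Of the 6 membrane and nucleotide effectors, Ifitm3 and Bst2 fell. Ifitm3, which sits in endosomal membranes and blocks fusion of viruses, had levels of 6.75 to 8.16 in ALP (median 7.78) and 3.55 to 5.27 in EILP (median 4.30). The lowest ALP library exceeded the highest EILP library, with a log2 fold change of −3.18 ± 0.49 (SE, limma adjusted p = 0.00081) and differences within batches from −3.85 to −2.45. Its promoter matches are the pair just after the start shown above. Per kilobase of exon, Ifitm3 had the highest mean level of the 40 genes in ALP, at 8.15 log2 CPM per kb, and ranked sixth in EILP, at 4.97. Bst2, known as tetherin, which holds budding virus at the cell surface and is also a surface antigen of plasmacytoid dendritic cells, had levels of 6.68 to 7.50 in ALP (median 7.09) and 5.55 to 6.27 in EILP (median 5.69). These ranges did not overlap. The fold change of Bst2 was −1.19 ± 0.20 (log2, SE, limma adjusted p = 0.00144), from −1.62 to −0.62 within batches. Rsad2, or viperin, which makes a chain-terminating nucleotide, had a mean of 4.53 ± 0.91 in ALP and 1.51 ± 2.42 in EILP (SD, n = 7 each) and was not called. Cmpk2, a nucleotide kinase that lies next to Rsad2 on chromosome 12, had means of 5.23 ± 0.60 and 6.22 ± 0.46, with a limma adjusted p of 0.126.

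Of the 5 ubiquitin ligases and ADP-ribosyltransferases, 2 fell. Trim30a, a TRIM protein that restrains Toll-like receptor signalling in the mouse, had levels of 6.61 to 7.73 in ALP (median 6.99) and 5.07 to 6.31 in EILP (median 5.93), with no overlap. Its log2 fold change was −1.29 ± 0.26 (SE, limma adjusted p = 0.0067), and −0.44 in batch 1 against −1.62 in batch 5. Parp9, which acts with the ligase Dtx3l on histones and viral proteins, had levels of 6.44 to 7.34 in ALP (median 6.63) and 5.28 to 6.21 in EILP (median 5.91). The populations again did not overlap, with a log2 fold change of −0.98 ± 0.26 (SE) and a limma adjusted p of 0.0444, close to the threshold. The call of Parp9 was lost when any one of 14 of the 19 libraries was left out, with fold changes from −1.10 to −0.79, and was kept only without ALP 1, ALP 2, ALP 3, ILCp 2 or ILCp 3. Parp9 and Dtx3l lie head to head on chromosome 16 and share 458 bases of exon on opposite strands, which these libraries cannot separate. Dtx3l had means of 6.95 ± 0.25, 6.54 ± 0.53 and 6.90 ± 0.27 in ALP, EILP and ILCp (SD) and was not called. Trim25, the ligase that activates RIG-I, and Parp14 had log2 fold changes of −0.86 ± 0.37 and −2.35 ± 1.13 (SE) and were not called either.

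Of the 7 genes with other products, Ifi44, Rtp4 and Xaf1 fell. Ifi44, a cytoplasmic protein strongly induced by interferon, had levels of 5.50 to 8.86 in ALP (median 7.27) and −1.99 to 3.18 in EILP (median −0.04). Every ALP library lay above every EILP library, and EILP 6 and EILP 7 were at the zero level. Its log2 fold change of −7.10 ± 0.99 (SE) had the smallest adjusted p of the 40 genes in this comparison (limma, 0.000309), and the difference was −2.99 in batch 4 and −10.74 in batch 5. Rtp4, a transporter-like protein known for carrying receptors to the cell surface, had levels of 6.02 to 9.85 in ALP (median 6.84) and −1.92 to 4.59 in EILP (median 3.08), without overlap. ALP 1 was the highest and EILP 1 the lowest library for Rtp4, and as both are in batch 1, where the batch removal ties them together, they are not separate departures. For Rtp4 the log2 fold change was −4.49 ± 0.99 (SE, limma adjusted p = 0.0124), with a difference of −11.78 in batch 1 and −3.98, −2.25 and −2.66 in batches 2, 4 and 5. With batch 1 left out, an alternative added after the data were seen, it was −2.91 and still called, and the call was lost without batch 4 or with only EILP and ALP in the fit. The call of Trim30a was also lost without batch 4. Xaf1, a partner of the apoptosis inhibitor XIAP, had levels of 5.02 to 6.04 in ALP (median 5.62) and 3.39 to 4.28 in EILP (median 3.78). Its log2 fold change was −1.75 ± 0.34 (SE, limma adjusted p = 0.00543), from −2.06 to −1.18 within batches.

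**Figure D3:**
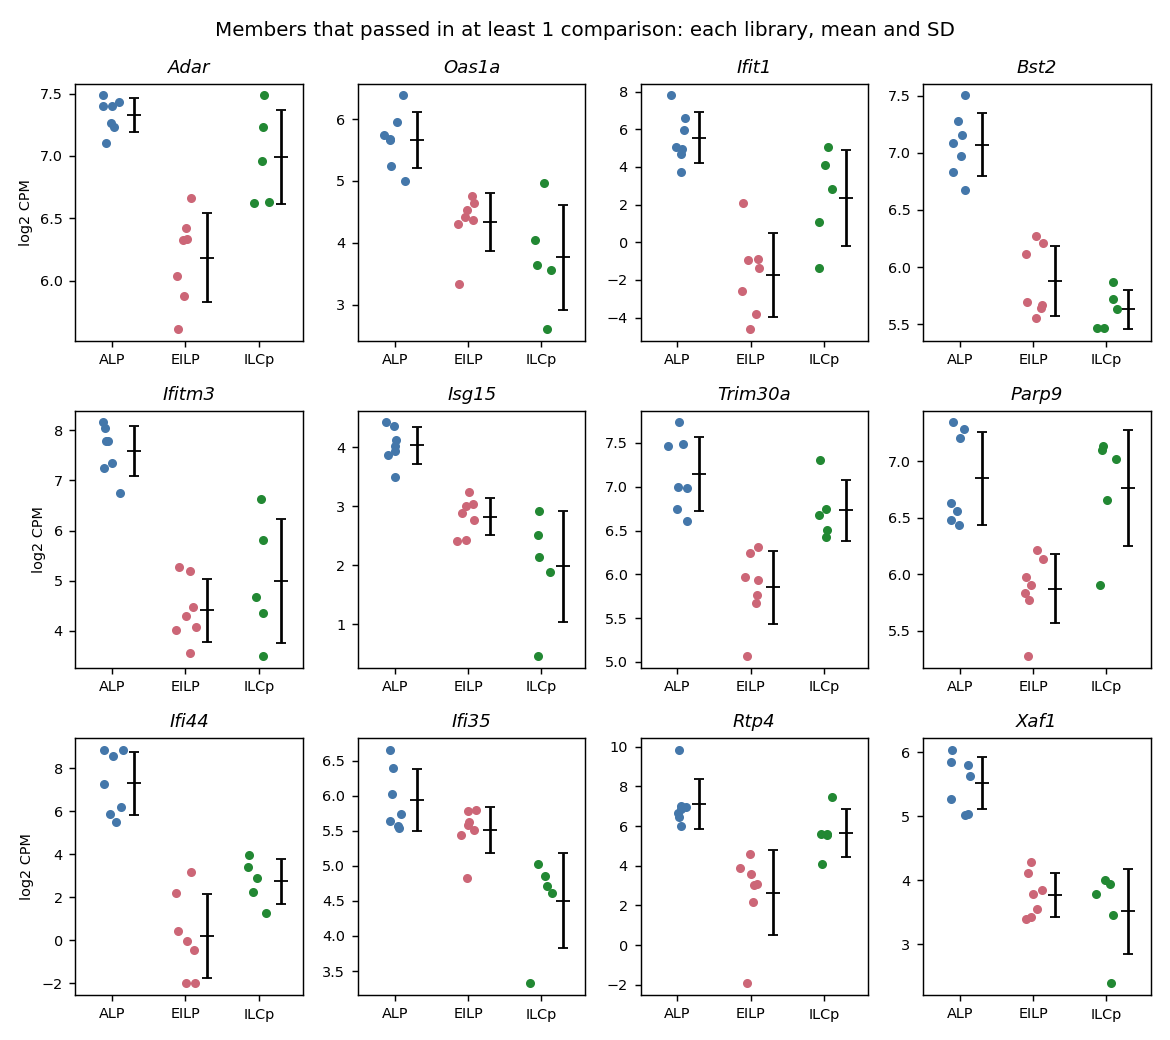
Each panel is one of the 12 called genes, with log2 CPM on the y axis; points are single libraries of ALP (7), EILP (7) and ILCp (5), and bars are the mean and SD. In 11 of the 12 panels the ALP points lie above all EILP points, the exception being Ifi35.

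Not every gene of these families was called. No gene of the oligoadenylate synthetase family, which makes the second messenger that activates RNase L, was called between EILP and ALP. Oas1a came closest, with levels of 5.00 to 6.39 in ALP (median 5.67) and 3.34 to 4.75 in EILP (median 4.42), no overlap, and a limma adjusted p of 0.0682. All 5 genes of the family had log2 fold changes below 0, with a median of −1.88. That of Oasl2 was −4.35 (limma adjusted p = 0.122), with differences from −11.03 to −0.31 within batches, and its populations overlapped. Oas2 was at the zero level in 10 of 19 libraries. Of the Mx GTPases, which trap viral nucleocapsids, Mx1 and Mx2 were each at the zero level in 14 of 19 libraries. Mx2 was at it in all 7 EILP and all 5 ILCp libraries and in 2 of 7 ALP libraries. C57BL/6 mice are known to carry a defective Mx1 allele. Without Mx2 the median log2 fold change over the remaining 39 genes was −1.19. The peptide transporter genes Tap1 and Tap2, which load MHC class I, were among the 5 genes with the highest mean level over all libraries, with Lgals3bp, Adar and Dtx3l. Tap1 had levels of 8.12 to 8.82 in ALP (median 8.42) and 7.78 to 8.22 in EILP (median 7.96), which overlapped. Tap2 had levels of 7.88 to 8.30 (median 8.11) and 7.30 to 7.96 (median 7.63), and both had a limma adjusted p of 0.0767. Lgals3bp, a secreted glycoprotein, had nearly the same level in both populations, at 7.74 to 8.33 (median 7.97) in ALP and 7.48 to 8.51 (median 8.12) in EILP, with a log2 fold change of 0.00 ± 0.20 (SE).

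Between ILCp and EILP none of the 40 genes was called. Limma called 1.76% of all genes higher, 1.46% lower and 3.21% in either direction. At an unadjusted p below 0.05, 10 genes were higher (Ifit1, Ifi44, Ddx58, Rtp4, Trim30a, Parp9, Herc6, Samd9l, Adar and Tap2) and 2 were lower (Ifi35 and Dhx58), against 7.37% and 9.28% of all genes. The other settings called between 0 and 24 genes in this comparison, with the values given under the dependence on processing. The genes Trim30a, Herc6 and Samd9l (3 of the 40) were higher in every ILCp library than in every EILP library and 0 genes were lower in this way, against 3.35% and 5.34% of all genes. The median log2 fold change over the 40 genes was 0.33, against −0.08 over all genes, with 24 of the 40 above 0.

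Samd9l, a translation repressor, had levels of 6.03, 6.76, 6.03, 5.90 and 5.77 in ILCp, 3.00 to 4.86 in EILP (median 4.55) and 1.20 to 5.61 in ALP (median 4.41). ILCp lay above all libraries of both other populations. The log2 fold change against EILP was 1.82 ± 0.72 (SE, limma adjusted p = 0.204) and against ALP 2.22 ± 0.70 (limma adjusted p = 0.0625), so it was called in neither. Herc6, the ligase that attaches Isg15 to proteins in the mouse, had levels of 6.08, 6.08, 6.08, 5.43 and 5.04 in ILCp and 2.47 to 4.67 in EILP (median 4.25), with a log2 fold change of 1.81 ± 0.53 (SE) and a limma adjusted p of 0.0784. ILCp values of Trim30a were 6.67, 6.74, 7.30, 6.50 and 6.42, all above EILP and overlapping with ALP. For Parp9 they were 7.10, 7.13, 5.91, 6.66 and 7.02, where only ILCp 3 fell within the EILP range. Rtp4 in ILCp had levels of 7.48, 5.53, 5.59, 4.10 and 5.62, of which 1, in ILCp 4, was within the EILP range. The tests of Trim30a, Parp9 and Rtp4 against EILP gave limma adjusted p values of 0.148, 0.149 and 0.192.

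Between ILCp and ALP, 7 of the 40 genes (17.5%) fell and 0 rose, against 4.39% of all genes called lower, 3.86% higher and 8.24% in either direction. At an unadjusted p below 0.05, 17 genes were lower and 3 higher (Zbp1, Samd9l and Isg20), against 11.8% and 9.09% of all genes. The 17 included Mx2, Mx1 and Oas2, at the zero level in 5, 4 and 4 of the 5 ILCp libraries. Zero-level values differ between batches, so the fold changes of these genes rest partly on values without reads. Apart from Mx2, whose zero-level values differ between batches and say nothing of an order, 9 genes (Isg15, Ifi44, Ifi35, Ifih1, Oas1a, Bst2, Xaf1, Parp14 and Ifitm3) were lower in every ILCp library than in every ALP library and 1, Samd9l, was higher, against 4.96% and 4.01% of all genes, shares that can include genes like Mx2. The median log2 fold change was −0.97 over the 40 genes and −0.03 over all genes, with 32 of the 40 below 0.

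Bst2 in ILCp had levels of 5.63, 5.72, 5.87, 5.47 and 5.47, a log2 fold change of −1.44 ± 0.22 (SE, limma adjusted p = 0.000674) against ALP. Xaf1 had 3.94, 2.39, 3.79, 3.46 and 4.01, with a log2 fold change of −2.01 ± 0.39 (SE, limma adjusted p = 0.00416) that was −3.44 in batch 2, −1.09 in batch 1 and −1.29 in batch 4. Ifitm3 had 4.36, 4.67, 6.62, 5.82 and 3.50. These values spread more widely than in EILP, yet all stayed below the lowest ALP library. Ifitm3 changed by −2.59 ± 0.56 on the log2 scale (SE, limma adjusted p = 0.00807), and the call was lost without ILCp 2. Ifi44 had levels of 3.40, 3.96, 2.87, 1.24 and 2.23 in ILCp, with a log2 fold change of −4.55 ± 1.13 (SE, limma adjusted p = 0.0191), and the call was lost without ALP 1.

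The other 3 genes were called in this comparison alone. Isg15, the ubiquitin-like protein whose ligase is Herc6, had levels of 3.49 to 4.42 in ALP (median 4.02), 2.41 to 3.24 in EILP (median 2.88) and 2.13, 1.88, 2.92, 0.46 and 2.52 in ILCp. Both later populations lay below all ALP libraries. Against ALP, Isg15 changed by −2.05 ± 0.50 on the log2 scale (SE, limma adjusted p = 0.018) in ILCp and −1.21 ± 0.44 (limma adjusted p = 0.149) in EILP, and the first was lost without ALP 4 or without ILCp 2. Oas1a, which carries overlapping ISRE cores just before its start, had levels of 3.56, 4.05, 4.96, 3.64 and 2.61 in ILCp, all below the ALP libraries. Its log2 fold change was −1.91 ± 0.45 (SE, limma adjusted p = 0.0144), and the call was lost without ALP 4 or without ILCp 1. Oas1g, a close copy of Oas1a, has a row of its own, and reads could be split between them. Ifi35, a leucine zipper protein, had levels of 5.54 to 6.66 in ALP (median 5.74), 4.83 to 5.80 in EILP (median 5.58) and 4.61, 3.33, 5.02, 4.71 and 4.85 in ILCp. ALP and EILP overlapped, and ILCp lay below every ALP library. Ifi35 had a log2 fold change of −1.43 ± 0.37 (SE, limma adjusted p = 0.0226), with −3.20 in batch 2 and −0.95 and −0.68 in batches 1 and 4, and the call was lost without ILCp 1 or without ILCp 2. Usp18, which removes Isg15 and blocks Ifnar2 signalling, and Uba7, the enzyme that activates Isg15, were not called, with log2 fold changes of −0.94 ± 1.39 and −0.17 ± 0.34 (SE). Of the 7 calls, Bst2, Xaf1 and Ifi44 were kept with only ILCp and ALP in the fit, Bst2, Xaf1 and Isg15 without batch 1, and all but Ifi44 and Oas1a without batch 4 or without the Plzf-cre-GFP/+ libraries.

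**Figure D4:**
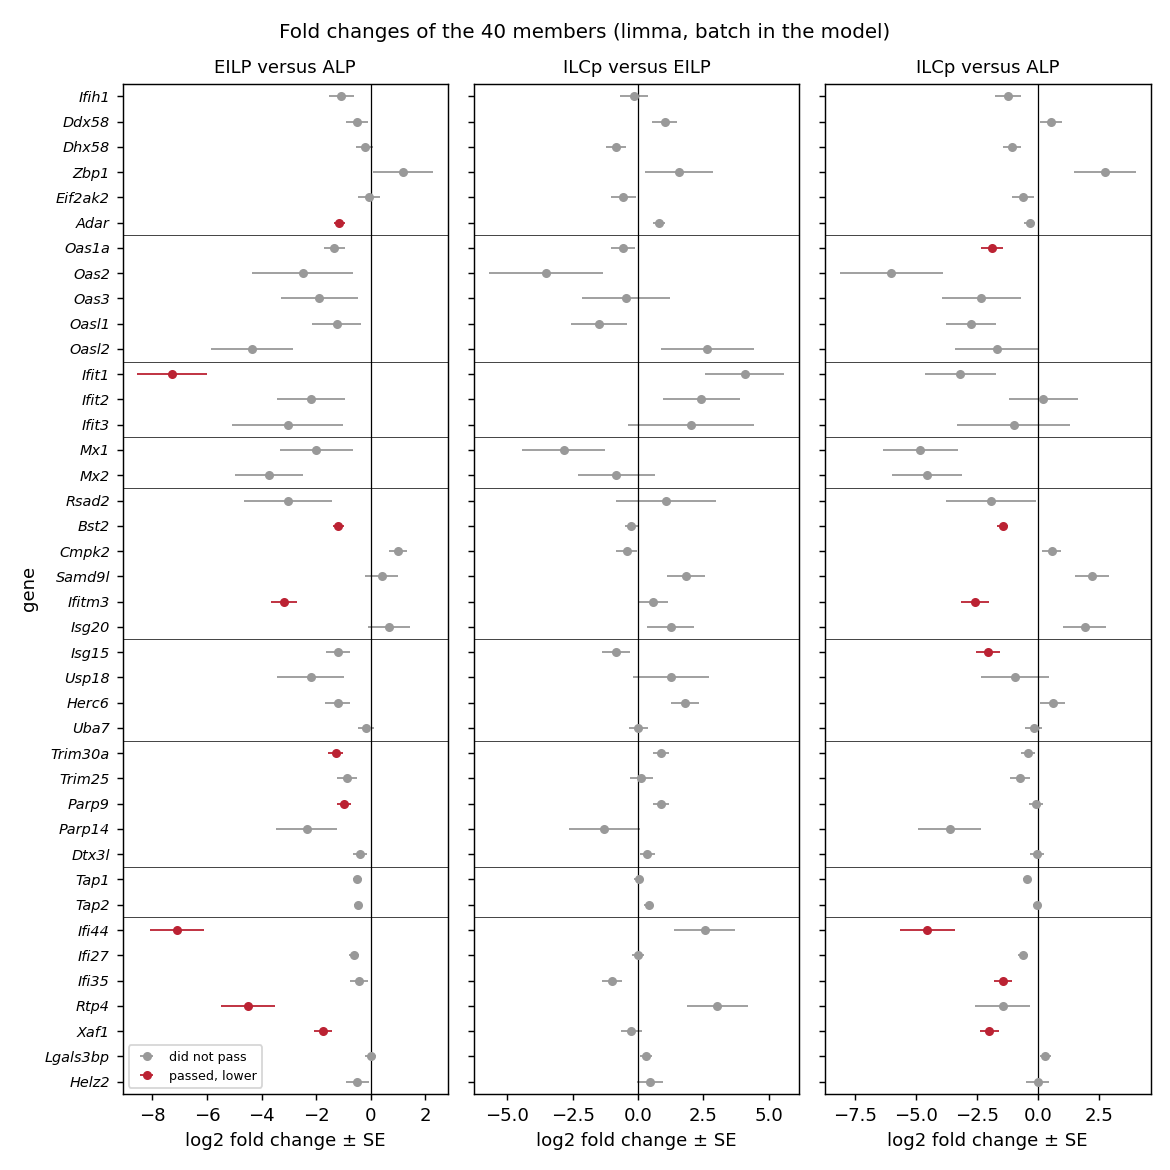
Each row is one of the 40 genes, grouped by role, and each panel a comparison; points are log2 fold changes from limma with batch in the model, bars are the SE, and red points passed the adjusted p threshold. Red points lie left of 0 in the first panel (9 genes) and the last (7 genes), and the middle panel has 0; Mx2 is at the zero level in every EILP and ILCp library.

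The 2 Plzf-cre-GFP/+ ILCp libraries were compared with the 3 Tcf7EGFP/+ ILCp libraries, to see whether the reporter went with these genes. None of the 40 genes was called, against 14 of all genes (0.0752%), a number that was 24 to 236 with 1 ILCp library left out. At an unadjusted p below 0.05, 5 genes (Dhx58, Oas1a, Mx1, Cmpk2 and Isg20) were lower in Plzf-cre-GFP/+, against 2.32% of all genes. Mx1 was at the zero level in 4 of the 5 ILCp libraries. As zero-level values differ between batches, its place among the 5 genes says nothing of an order. Only batch 4 holds both kinds, with 1 library against 2, so the comparison is weak. Without the 2 libraries, 10, 0 and 5 of the 40 genes were called between EILP and ALP, ILCp and EILP, and ILCp and ALP. Fewer libraries change the test of every gene, so these counts are not a result about the 40 genes.

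Upstream of these genes, single steps of the pathway changed in different directions. The counts in this list and those below stand beside the shares of all genes called. These were 2.79% lower and 2.25% higher between EILP and ALP, and 1.46% and 1.76% between ILCp and EILP. Between ILCp and ALP they were 4.39% lower and 3.86% higher. Of 10 receptor and JAK-STAT genes, Ifnar2, Ifngr2 and Irf9 were lower and Jak2 higher in EILP than in ALP, and 6 were not called. Ifnar2, the chain that binds interferon with high affinity, had levels of 7.78 to 8.44 in ALP (median 8.09) and 6.49 to 7.37 in EILP (median 7.09), with a log2 fold change of −1.15 ± 0.19 (SE, limma adjusted p = 0.00175). Irf9, the DNA-binding part of the complex at the ISRE, fell by 0.88 ± 0.17 on the log2 scale (SE, limma adjusted p = 0.00493). Jak2, which acts with the type II interferon receptor and with cytokine receptors, rose by 1.16 ± 0.22 (limma adjusted p = 0.00497). Ifngr2, a chain of the type II receptor, had a log2 fold change of −1.57 ± 0.29 (SE, limma adjusted p = 0.00337). Stat2 was not called in any comparison, with mean levels of 5.17 ± 1.01 in ALP, 4.42 ± 0.99 in EILP and 4.22 ± 0.55 in ILCp (SD). In ILCp, Jak1 was higher than in EILP by 1.04 ± 0.14 (log2, SE, limma adjusted p = 0.0012), with every ILCp library above every EILP library. Ifnar2 and Irf9 were also lower, and Jak1 and Jak2 higher, in ILCp than in ALP.

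Among 8 interferon regulatory factors, Irf7, the factor that drives interferon genes and is itself induced by interferon, fell in EILP. Its levels were 5.99 to 6.57 in ALP (median 6.05), 4.16 to 4.96 in EILP (median 4.47) and 5.15 to 5.41 in ILCp (median 5.17), so that the 3 populations did not overlap. The log2 fold change between EILP and ALP was −1.59 ± 0.21 (SE, limma adjusted p = 0.000158), and Irf7 was lower in ILCp than in ALP by a log2 fold change of −0.89 ± 0.23 (SE, limma adjusted p = 0.0276). Irf8, a factor of dendritic cells and monocytes, was lower in ILCp than in EILP (−2.18 ± 0.49, limma adjusted p = 0.0243) and than in ALP (−2.88 ± 0.47, limma adjusted p = 0.00107). Of 7 inhibitors, Socs1, which blocks the kinases, rose in ILCp. Its levels were 3.10 to 3.66 in ALP (median 3.44), 3.92 to 4.66 in EILP (median 4.12) and 6.18 to 7.20 in ILCp (median 6.92), with no overlap. Socs1 was higher in ILCp than in EILP by 2.66 ± 0.30 (log2, SE, limma adjusted p = 0.000206). The phosphatase gene Ptpn6 was lower in ILCp than in EILP by a log2 fold change of −0.78 ± 0.19 (SE, limma adjusted p = 0.0364), and both were also called, in the same directions, against ALP.

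Of 10 measured sensors and adaptors, 3 were lower in EILP than in ALP, against 2.79% of all genes, and 0 were called in the other comparisons. Tlr7, an endosomal RNA sensor, was at the zero level in 4 of 7 EILP libraries and between 4.06 and 7.95 in ALP. Tbk1, the kinase that activates Irf3, fell by 0.92 ± 0.19 on the log2 scale (SE, limma adjusted p = 0.00808), and Mb21d1, the DNA sensor cGAS, had a limma adjusted p of 0.0457. Of 20 interferon genes, 1 was a row of the table, Ifna4, and it was at the zero level in 18 of 19 libraries.

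Other interferon-induced families were described in the same way. Of 15 measured interferon-induced GTPases, which attack the vacuoles of intracellular pathogens, 4 (Gbp6, Iigp1, Tgtp1 and Tgtp2) were lower in EILP than in ALP. Of these, 3 (Iigp1, Tgtp1 and Tgtp2) were higher in ILCp than in EILP. The shares of all genes were 2.79% lower in the first comparison and 1.76% higher in the second. Tgtp2 had levels of 6.82 to 7.61 in ALP (median 7.33), 4.68 to 5.30 in EILP (median 5.05) and 6.11 to 7.47 in ILCp (median 6.43). EILP lay below both others without overlap. The log2 fold change of Tgtp2 was −2.22 ± 0.23 (SE, limma adjusted p = 1.88e-05) from ALP to EILP and 1.49 ± 0.27 (limma adjusted p = 0.00804) from EILP to ILCp. Tgtp1 and Tgtp2 are near-identical copies, so reads could be split between them. Gbp3 and Gbp6 were lower in ILCp than in ALP. In the 6 genes of the family of Ifi203 and Aim2, which sense DNA, Ifi203 was lower in EILP than in ALP (−1.50 ± 0.24, limma adjusted p = 0.00132), and Ifi203 and Aim2 were lower in ILCp than in ALP.

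**Figure D5:**
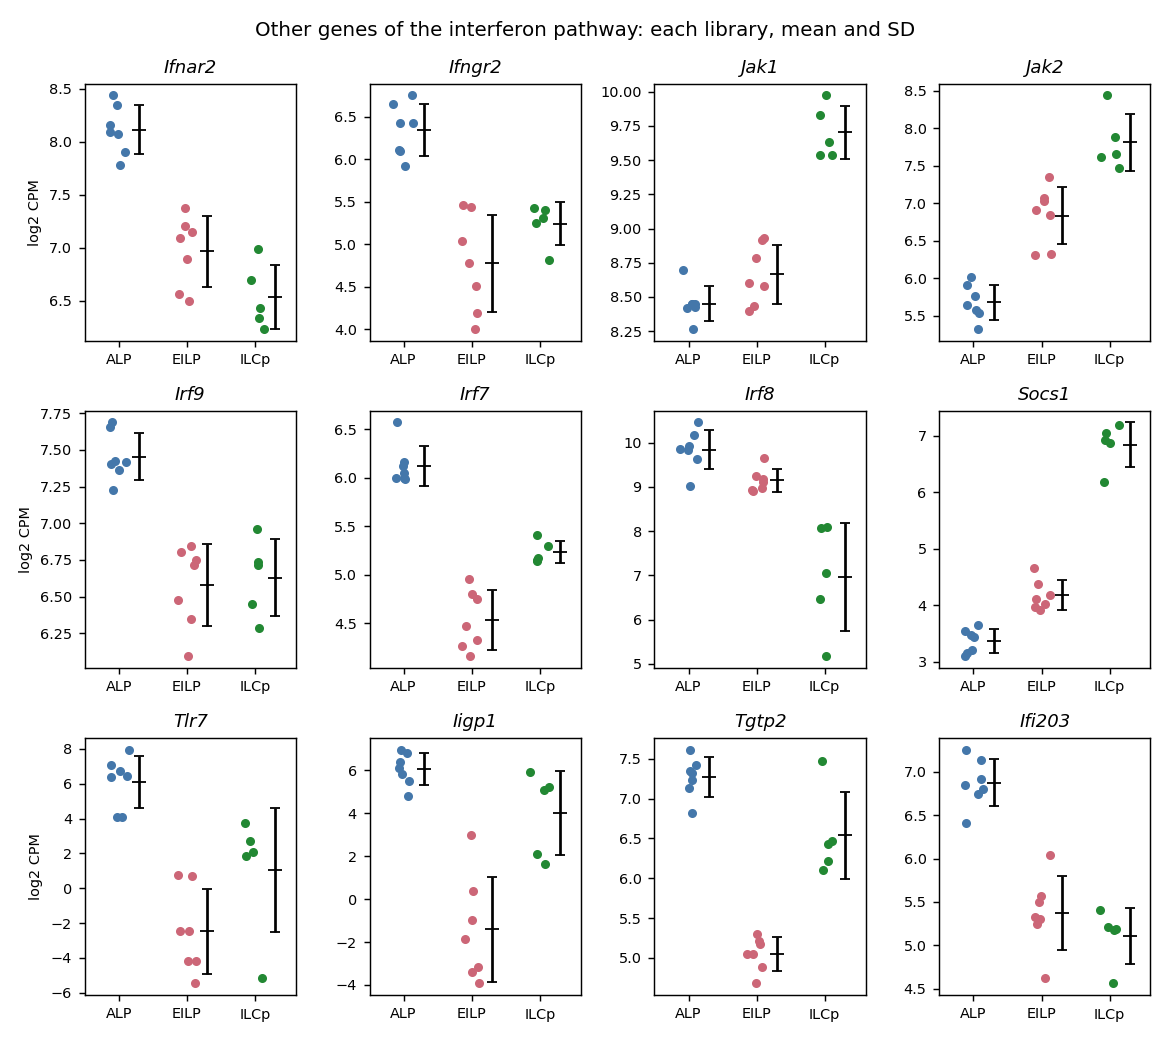
Each panel is a called gene of the interferon pathway outside the 40, with log2 CPM on the y axis; points are single libraries of ALP (7), EILP (7) and ILCp (5), and bars are the mean and SD. Ifnar2, Irf9 and Irf7 are highest in ALP, Jak1 and Socs1 are highest in ILCp, and Tgtp2 is lowest in EILP.

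Some markers of other cells differed between the populations. Plasmacytoid dendritic cells, the main producers of type I interferon, hold high levels of many interferon-stimulated genes, Bst2 included. Of 9 measured markers of these cells, 5 (Siglech, Ccr9, Cox6a2, Cd300c and Runx2) were lower in EILP than in ALP, 2 were lower in ILCp than in EILP and 4 were lower in ILCp than in ALP. Of all genes, 2.79%, 1.46% and 4.39% were called lower in these comparisons. The other 4 markers were not called in any comparison, with log2 fold changes from ALP to EILP of 3.05 for Spib, 1.56 for Ly6c2, 1.29 for Cd209d and 0.76 for Pacsin1. The summed CPM of the 9 was 334 to 739 in ALP (median 538), 183 to 441 in EILP (median 265) and 70.0 to 307 in ILCp (median 200), to which Ly6c2, with a mean level of 7.53 log2 CPM in EILP, contributed much. Siglech, a defining marker, had levels of 3.77 to 7.14 in ALP and was at the zero level in 5 of 7 EILP and 3 of 5 ILCp libraries. The part of these markers in the lower levels of the 40 genes was not tested.

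Monocyte and macrophage markers summed to 364 to 2697, 188 to 1434 and 826 to 1942 CPM in ALP, EILP and ILCp. The ILCp sum was mostly Ccr2, at a mean of 9.98 log2 CPM there, which was called higher in all 3 comparisons and was the only one of 9 called between EILP and ALP. Csf1r, Ly86 and Ms4a6c were lower in ILCp than in ALP, and the list's median log2 fold change there was −3.64. For 10 neutrophil markers the sums were 472 to 5322, 1557 to 37433 and 89.5 to 1473 CPM. None was called between EILP and ALP, where the list's median log2 fold change was −0.95 although the sums were higher, and Mpo and Prtn3 were lower in ILCp than in EILP. For 7 B cell markers the sums were 82.7 to 255, 53.0 to 96.3 and 27.1 to 57.0 CPM, with Ebf1 lower in EILP and in ILCp than in ALP and Cd79b lower in ILCp than in ALP. For 9 mature T and NK cell markers they were 0.552 to 39.3, 3.89 to 97.5 and 5.81 to 81.5 CPM, with Gzma higher in EILP and in ILCp than in ALP and Cd3d, Cd3g and Ncr1 higher in ILCp than in ALP. Their part in the results was not tested either.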

How the data were processed

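Total RNA of sorted cells was sequenced, with RNeasy plus micro extraction, SMARTer Ultra Low cDNA and Nextera XT libraries per the labels' protocols. The submitters' processing notes name bcl2fastq 1.8.4, STAR 2.4.0h, edgeR, limma and mm10, without saying what each was used for; the sources used here give neither the gene annotation nor how reads were counted. What the authors deposited is 1 matrix of log2 CPM, genes by 19 libraries, without counts, so the depth and its precision are unknown. From the values, the batch means of every gene had been made equal in a model that kept the 3 populations, a step that no label records. No filter and no pseudocount were applied here.

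Comparisons used limma (version 3.58.1, under R version 4.3.3), with a mean-variance trend, population and batch as fixed effects, all 19 libraries and 12 residual degrees of freedom. All tests were two-sided, with Benjamini-Hochberg adjustment over 18607 genes. Since batch means were already equal, the batch term leaves the fold changes as differences of population means. A library was put at the zero level where it shared the lowest value of its batch for that gene with another library (tolerance 1e-06), or where the gene's batch minima averaged −4.96. A lone library without reads in its batch can be missed in this way, so the numbers of libraries at the zero level are minimums. Promoters come from RefSeq (GRCm38.p6), exon lengths and overlaps from GENCODE M21 (GRCm38).

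The 40 genes and all other lists were chosen with earlier results of these data known. Genes given library by library were those called in at least 1 comparison and the 5 with the highest mean level; Samd9l, Herc6 and other uncalled genes were named after their values were seen. The code was tested on simulated data. A gene of the pathway lists is not reported here. Alternatives covered the batch and replicate terms, the libraries in the fit, scaling, filters and variance options, with each library left out in turn.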

Additional observations from a re-analysis of the deposited data

Results flagged for a closer look

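In 19 of 120 sets of values (40 genes in 3 populations), a single library stood apart from the rest of its population. About 1 in 20 such sets would be marked by chance if libraries were independent and values normally distributed. Here batch removal ties libraries together and some values are at the zero level, so that share need not apply. Values are log2 CPM.

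In ALP, ALP 1 was high for Rtp4 (9.85, population median 6.84) and for Oasl1 (7.80, next 4.60), ALP 3 was low for Zbp1 (−3.44, next 1.85), and ALP 7 was low for Ddx58 (3.44, next 4.64). In EILP, EILP 1 was low for Rtp4 (−1.92, next 2.18) and for Usp18 (−2.04, next 3.10), and EILP 2 was low for Trim25 (4.38, next 6.01) and for Mx1 (−7.08, at the zero level of its batch). EILP 5 was low for Ifi35 (4.83, next 5.44), and EILP 6 was low for Oas1a (3.34, next 4.30). In ILCp, ILCp 1 was low for Oasl1 (−1.60, next 2.19), and ILCp 4 was low for Rsad2 (−4.74, next 2.61). ILCp 2 was low for Ifi35 (3.33, next 4.61) and Parp14 (−2.19, next 3.02) and high for Samd9l (6.76, next 6.03) and Trim25 (7.17, next 6.19). ILCp 5 was high for Dtx3l (7.38, next 6.82) and Helz2 (5.71, next 4.24) and low for Ifih1 (2.09, next 3.04). Libraries of one batch are tied together by the batch removal, so ALP 1 and EILP 1 for Rtp4, ALP 1 and ILCp 1 for Oasl1, and EILP 2 and ILCp 2 for Trim25 are not separate departures.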

How the results depend on the processing

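The number of the 40 genes called between EILP and ALP, ILCp and EILP, and ILCp and ALP was 9, 0 and 7. It was 19, 10 and 19 without a batch term and 20, 24 and 32 with batch as a random effect, where 3391, 8201 and 11612 of all genes were called. Since batch means had been removed before deposit, fits without a fixed batch term count more degrees of freedom than the values hold. The labels give same-numbered libraries no shared source. Correlations of their deviations were −0.64 to 0.12 over 17 pairs, but batch removal lowers those of pairs within a batch, so they cannot show whether numbers pair libraries. A replicate block in place of batch gave 14, 4 and 14. Between EILP and ALP, 3 genes were called in batch 5 alone. Between ILCp and EILP, 1 was called in batch 4 alone, where the median log2 fold change of the 40 genes was −0.0095, below 0 in place of 0.33. Between ILCp and ALP, 4 were called with only the groups compared, 3 in batches that hold both, 2 in batch 4 alone, neither of them among the 7, and 11 without ALP 7 and EILP 2; the cause was not tested. With 1 library left out the counts were 8 to 11, 0 to 1 and 5 to 10, and 0 for the reporters; the 1 gene between ILCp and EILP was called without ALP 6 or without EILP 2. Median centring moved all genes by 0.22, −0.09 and 0.13, turned the higher and lower calls of all genes from 419 and 520 to 804 and 395 (EILP and ALP), 327 and 271 to 279 and 390 (ILCp and EILP) and 718 and 816 to 813 and 584 (ILCp and ALP), and called 8, 0 and 7 of the 40 genes, all lower. Relative to that shift the median log2 fold changes of the 40 genes were −0.99, 0.24 and −0.85, with 33, 18 and 28 of them below 0. Without batch 1, added after the data were seen, 9, 0 and 5 genes were called, of which 8 and 3 were among the 9 and 7. Over all genes, the counts with 1 library left out were 696 to 964, 224 to 624 and 920 to 1584. Between EILP and ALP, the other settings called 397 to 3391 of all genes. The counts of all genes thus moved as well, so a changed count of the 40 genes shows nothing particular to them. No called gene reversed in any setting that could be fitted. With no counts, how far depth limits the genes near the zero level is unknown.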

Other observations

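Levels were compared between genes per kilobase of exon, as mean log2 CPM per kb. Lgals3bp ranked first in EILP (6.49) and in ILCp (6.79), and Ifitm3 (8.15), Bst2 (7.22) and Lgals3bp (6.49) held the first ranks in ALP, in that order. Bst2 was at 6.03 in EILP and 5.78 in ILCp, and Tap2 at 5.72 and 6.13. Isg15, with 756 bases of exon, was at 4.43 in ALP, 3.23 in EILP and 2.39 in ILCp on this scale.

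Isg20, an RNA exonuclease, had levels of 7.47, 4.70, 4.41, 2.29 and 4.40 in ILCp, 1.91 to 4.30 in EILP (median 3.46) and 1.42 to 4.71 in ALP (median 2.58), and was not called in any comparison. ILCp 1 was its highest library and the other 4 ILCp libraries lay within the ALP range. Zbp1 had levels of 4.32, 6.34, 5.18, 4.27 and 5.34 in ILCp and was also not called.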
